A study of Mus musculus with 6 samples.

Results

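Glycolysis splits glucose into pyruvate, and the genes described here cover its entry, its controlled steps and its exit as lactate. The list held 10 genes, named by symbol and chosen with earlier results of these data known. They were *Slc2a1*, *Hk1*, *Hk2*, *Hk3*, *Gpi1*, *Pfkfb3*, *Aldoc*, *Pkm*, *Ldha* and *Slc16a3*, and all 10 were found among the 24562 gene symbols of the deposited count table. All 10 also passed the filter on low counts, which left 11470 genes in the test. Macrophages raise glycolysis when they are activated by microbial products or by low oxygen, and in low oxygen the transcription factor HIF-1 drives many of these genes. ATP citrate lyase, the product of *Acly*, acts beyond pyruvate, where carbon that left mitochondria as citrate is made available as acetyl-CoA for fatty acid and sterol synthesis.

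RNA-seq was made from 6 libraries of unstimulated (naive) bone marrow-derived macrophages of female mice on the C57Bl/6J background. The 3 control libraries, WT in the labels, came from Acly fl/fl mice without Cre, and the 3 AclyM-KO libraries from Acly fl/fl littermates that carried Cre under the *Lyz2* promoter, which is active in neutrophils as well as in monocytes and macrophages. Both groups therefore carried the floxed allele, and the control group lacked the Cre insertion at *Lyz2* as well as the deletion. The series record gives the mice as female, while the methods give both sexes and an age of 8 to 14 weeks for the in vitro work as a whole, with no age for these libraries alone. The marrow cells were grown into macrophages with L929-conditioned medium, and the study describes its culture replicates as technical replicates of cells pooled from 3 mice, so every p-value below measures the spread between libraries and not between animals. Total counts were 19327459 to 23582992 in the control libraries and 19797218 to 44507233 in the AclyM-KO libraries, of which AclyM-KO replicate 2 was the deepest. Levels are given in CPM, the usual counts scaled to a common library size, here by TMM, as mean ± SD with n = 3 per group, and fold changes are AclyM-KO over control on the log2 scale.

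*Acly* itself was 229.7 ± 8.18 CPM in control and 96.8 ± 3.06 CPM in AclyM-KO macrophages, a log2 fold change of −1.25 (SE 0.066), so the libraries followed their labels. All 8 macrophage markers were measured, and the markers summed to between 21672 and 22659 CPM in control but to between 12656 and 15295 CPM in AclyM-KO libraries. Of these 8, *Lyz2*, *Csf1r* and *Mertk* fell. The other 5, *Adgre1*, *Cd68*, *Itgam*, *Fcgr1* and *Cd14*, did not pass, with log2 fold changes between −0.18 and 0.16. *Lyz2* alone went from 13305 ± 460 to 6437 ± 731 CPM. Without *Lyz2*, the gene that carries the Cre, the sums were 8624 to 8823 CPM and 7050 to 8315 CPM. The 10 neutrophil markers summed to between 40.2 and 44.2 CPM in control and between 64.9 and 74.4 CPM in AclyM-KO libraries. *Mmp8* made up that difference, since the sums without it were 20.03 to 23.7 CPM and 20.5 to 23.6 CPM, and *Ly6g*, *Camp* and *Elane* had at most 3 counts in every library. No marker of dendritic cells, fibroblasts, lymphocytes or the erythroid and megakaryocyte lines passed the filter on low counts. Of 18 proliferation genes 16 rose in AclyM-KO macrophages, with a median log2 fold change of 0.58. In these bulk libraries, fewer cells of a type and less RNA per cell cannot be told apart.

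The 10 genes did not move one way. *Aldoc*, *Pkm* and *Hk3* rose in AclyM-KO macrophages, *Hk2*, *Pfkfb3* and *Gpi1* fell, and *Slc2a1*, *Hk1*, *Ldha* and *Slc16a3* did not pass the threshold of 0.05 on the adjusted p of edgeR's quasi-likelihood test. Of all 11470 genes tested, 1416 passed (12.3%), 768 of them higher (6.70%) and 648 lower (5.65%) in AclyM-KO. Scaling by total counts instead of TMM gave 919 higher and 508 lower genes. The same 6 glycolysis genes were those whose 3 AclyM-KO libraries lay all above (3) or all below (3) the 3 control libraries, a separation seen in 32.8% of all genes tested. The median log2 fold change of the 10 genes was 0.03, beside 0.000259 over all genes tested, and the median size of change without regard to sign was 0.28, beside 0.15 over all genes tested. The level of each gene in each library is shown in the plot of CPM by genotype.

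**Figure D1:**
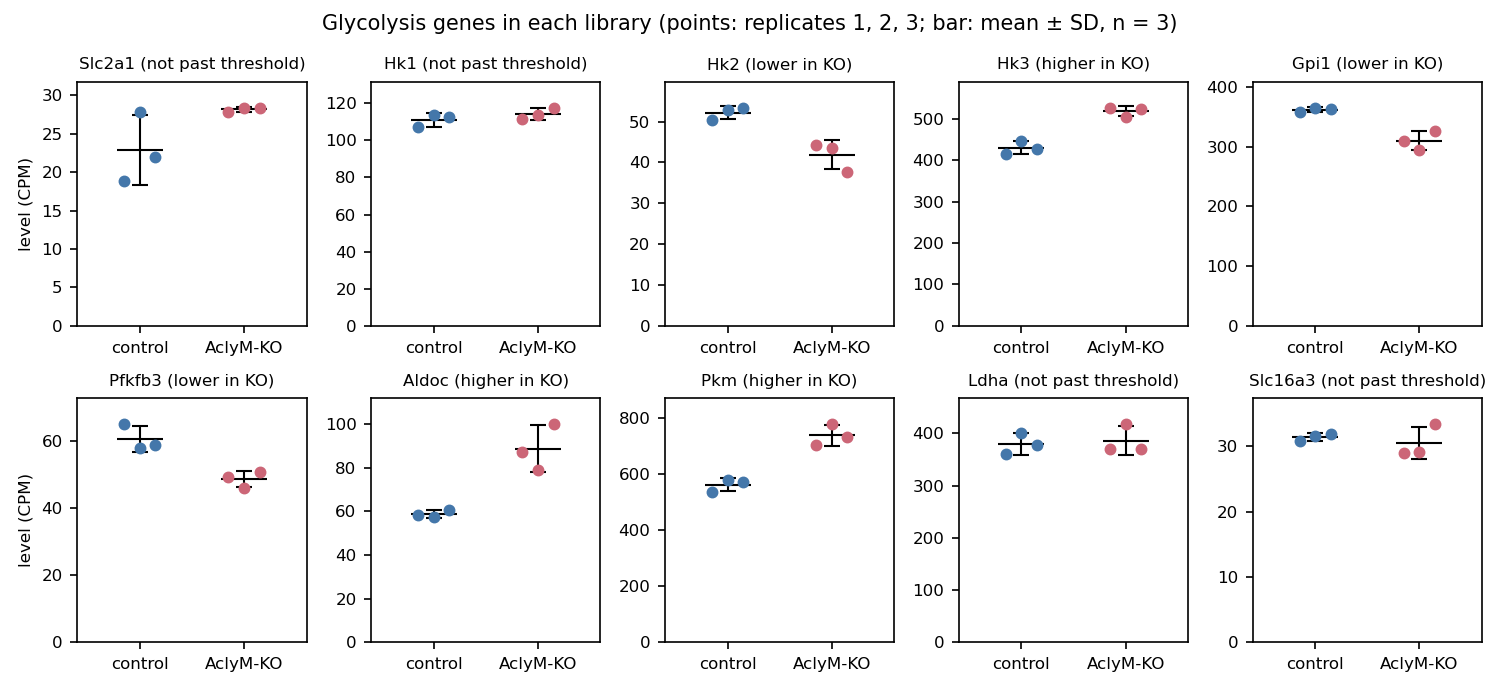
Each panel shows 1 glycolysis gene, with its level in CPM on a linear axis from 0, 3 control and 3 AclyM-KO libraries as points in replicate order, and the mean ± SD as bars. The AclyM-KO points lie above all control points for *Hk3*, *Aldoc* and *Pkm* and below all of them for *Hk2*, *Gpi1* and *Pfkfb3*, while the other 4 panels overlap.

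Glucose entry was read from *Slc2a1*, which encodes GLUT1, the carrier that takes glucose across the plasma membrane of macrophages (chr4:119108745-119137330 in GRCm38.p6). Its level was 18.8, 27.8 and 21.9 CPM in control replicates 1, 2 and 3 and 27.8, 28.4 and 28.4 CPM in AclyM-KO replicates 1, 2 and 3. Control replicate 2 lay beside the AclyM-KO libraries and the other control libraries lay lower, so the groups touched at 27.8 CPM. The means were 22.8 ± 4.56 and 28.2 ± 0.344 CPM, with a log2 fold change of 0.30 (SE 0.129, 95% interval 0.01 to 0.58) and an adjusted p of 0.163 (edgeR). Over 9 other settings the adjusted p lay between 0.0936 and 0.188. The log2 fold change was 0.47 without control replicate 2 (adjusted p 0.0502) and 0.18 without control replicate 1 (0.496). The groups thus overlapped, and *Slc2a1* did not pass after adjustment over the 11470 genes tested. Its interval, which was not adjusted, lay wholly on the side of a rise (unadjusted p 0.0409 in edgeR). That interval reached up to 0.58 on the log2 scale.

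The hexokinases trap glucose in the cell as glucose 6-phosphate. HK1 and HK2 can bind the outer mitochondrial membrane, and HK3 is the form best known from blood and myeloid cells. The 3 genes went 3 ways: *Hk3* rose, *Hk2* fell and *Hk1* did not pass the test. *Hk1* (chr10:62268855-62379920) was at 107, 114 and 112 CPM in control and 112, 114 and 118 CPM in AclyM-KO libraries. Its means of 111 ± 3.604 and 114 ± 3.07 CPM gave a log2 fold change of 0.04 (SE 0.066, 95% interval −0.10 to 0.18, adjusted p 0.748 in edgeR), and its groups overlapped. With a library left out it ran from 0.013 (control replicate 1) to 0.058 (control replicate 2), and it was 0.019 without AclyM-KO replicate 3.

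*Hk2* (chr6:82725025-82774454), a hexokinase induced by HIF-1, was at 50.5, 52.8 and 53.4 CPM in control and 44.2, 43.5 and 37.8 CPM in AclyM-KO libraries. Every AclyM-KO library lay below every control library, AclyM-KO replicate 3 lowest. The mean fell by 19.7% by the fitted fold, from 52.2 ± 1.54 to 41.8 ± 3.54 CPM, a log2 fold change of −0.32 (SE 0.086, 95% interval −0.50 to −0.13, adjusted p 0.0331 in edgeR). The call was lost when libraries were scaled by total counts (adjusted p 0.0613, within a range of 0.00329 to 0.0613 over 9 settings) and when control replicate 1, 2 or 3 (0.0913, 0.123 and 0.128) or AclyM-KO replicate 3 (0.0931) was left out.

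*Hk3* (chr13:55005985-55021475) was at 416, 447 and 427 CPM in control and 527, 504 and 524 CPM in AclyM-KO libraries. Its lowest AclyM-KO library stood above its highest control library. The rise of 20.5%, from 430.1 ± 15.4 to 518 ± 12.6 CPM, was a log2 fold change of 0.27 (SE 0.062, 95% interval 0.13 to 0.40, adjusted p 0.0161 in edgeR). It passed in all 9 other settings, with adjusted p between 0.000443 and 0.0203, but not without control replicate 1, 2 or 3 (0.107, 0.0537 and 0.0959). *Hk3* shares 34 exonic bases with *Unc5a* on the opposite strand, as *Slc2a1* shares 105 with *Gm12868* and *Hk1* 157 with *Hk1os*. The counts were made with the default strand handling of the counting tool, which the study does not spell out.

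*Hk2* and *Hk3* moved in opposite directions, so the 250 bases before the RefSeq start of each are shown, read from 5′ to 3′ along the strand of the gene in GRCm38.p6. Capitals mark ACGTG, the core of the sites that HIF-1, MYC and related factors bind, written CACGT where it lies on the other strand:
Hk2 promoter, chr6:82774455-82774704, minus strand: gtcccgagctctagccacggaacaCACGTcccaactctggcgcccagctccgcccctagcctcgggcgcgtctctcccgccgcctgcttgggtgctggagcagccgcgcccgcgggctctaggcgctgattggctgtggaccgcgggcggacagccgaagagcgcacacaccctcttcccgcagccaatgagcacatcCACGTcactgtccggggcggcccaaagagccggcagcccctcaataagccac
Hk3 promoter, chr13:55021386-55021635, minus strand: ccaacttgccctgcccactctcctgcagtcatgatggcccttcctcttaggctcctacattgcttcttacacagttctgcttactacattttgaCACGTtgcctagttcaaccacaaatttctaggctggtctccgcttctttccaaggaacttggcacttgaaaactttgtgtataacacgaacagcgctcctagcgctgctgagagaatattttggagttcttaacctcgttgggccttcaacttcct
The *Hk2* window held 2 such matches and the *Hk3* window 1. For each gene only the window nearest the start of its counted transcript was read. *Hk1*, *Pfkfb3*, *Aldoc*, *Pkm* and *Ldha* had 2 windows each, and their other window was left out. Among the 10 glycolysis genes, 5 windows held ACGTG on either strand, beside 16.6% of all 32851 RefSeq windows of the same length. These were 1 of the 3 genes that rose, 2 of the 3 that fell and 2 of the 4 that did not pass. A match here is a run of letters and not a measured binding site, and no binding was assayed in these libraries.

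After the hexokinase step, glucose 6-phosphate isomerase turns glucose 6-phosphate into fructose 6-phosphate. Its gene *Gpi1* (chr7:34201327-34230336) was at 357, 365 and 362 CPM in control and 309, 294 and 327 CPM in AclyM-KO libraries, with every AclyM-KO library below every control library. The fall of 14.3%, from 361 ± 4.04 to 310.0 ± 16.3 CPM, was the smallest of the 6 that passed (log2 fold change −0.22, SE 0.064, 95% interval −0.36 to −0.08, adjusted p 0.0433 in edgeR). The call did not hold when libraries were scaled by total counts (0.0747, within a range of 0.0130 to 0.0747 over 9 settings) or the replicate number was added as a block (0.0506), nor without control replicate 1, 2 or 3 (0.138, 0.161 and 0.164) or AclyM-KO replicate 1 (0.0716). Of the 50-base words of the *Gpi1* transcript, 25.3% occur in transcripts of other genes, and 741 of its exonic bases overlap *Gm26762* on the opposite strand. What either did to its count was not tested.

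PFKFB3 makes fructose 2,6-bisphosphate, the main activator of phosphofructokinase, and of its family it is the form with the strongest bias towards making this activator. *Pfkfb3* (chr2:11471430-11554071) was at 64.9, 58.0 and 58.7 CPM in control and 49.3, 45.8 and 50.6 CPM in AclyM-KO libraries. No AclyM-KO library reached the lowest control library. The fall of 19.9%, from 60.6 ± 3.81 to 48.6 ± 2.46 CPM, was a log2 fold change of −0.32 (SE 0.081, 95% interval −0.50 to −0.14, adjusted p 0.0244 in edgeR). It passed in all 9 other settings (0.0120 to 0.0370), but not without control replicate 1, 2 or 3 (0.138, 0.0658 and 0.0781). The table held 8 transcript rows of *Pfkfb3*, whose log2 fold changes lay between −0.33 and −0.32, and these rows share reads.

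The *Pfkfb3* window is shown because it was the only one of the 10 with the palindrome CACGTG, which 6.02% of RefSeq windows held, and the *Aldoc* window because this gene rose most of the 10. Both are from RefSeq on GRCm38.p6, read from 5′ to 3′, with the palindrome in capitals:
Pfkfb3 promoter, chr2:11502091-11502340, minus strand: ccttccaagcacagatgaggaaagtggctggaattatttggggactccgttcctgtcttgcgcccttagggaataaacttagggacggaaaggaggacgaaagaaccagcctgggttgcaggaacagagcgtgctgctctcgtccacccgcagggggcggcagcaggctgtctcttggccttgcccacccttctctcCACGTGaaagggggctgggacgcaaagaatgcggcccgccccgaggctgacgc
Aldoc promoter, chr11:78323948-78324197, plus strand: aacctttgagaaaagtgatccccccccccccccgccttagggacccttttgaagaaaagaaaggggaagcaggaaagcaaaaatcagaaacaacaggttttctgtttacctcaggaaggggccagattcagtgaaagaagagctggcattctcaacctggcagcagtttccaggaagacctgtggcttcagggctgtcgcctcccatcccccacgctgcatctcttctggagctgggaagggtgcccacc
This *Aldoc* window held no ACGTG on either strand. *Pfkfb3* and *Aldoc* had 2 RefSeq windows each, and the window not shown was not read for either.

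Aldolase splits fructose 1,6-bisphosphate into a pair of 3-carbon sugars, and aldolase C is the form first known from brain. *Aldoc* (chr11:78323073-78327781) had the largest change of the 10 genes. It was at 58.3, 57.5 and 60.8 CPM in control and 87.4, 78.8 and 99.98 CPM in AclyM-KO libraries, so the lowest AclyM-KO library was well above the highest control library, and the AclyM-KO libraries were the more spread. The mean rose by 50.3% by the fitted fold, from 58.9 ± 1.74 to 88.7 ± 10.7 CPM (log2 fold change 0.59, SE 0.091, 95% interval 0.39 to 0.79, adjusted p 0.00202 in edgeR). *Aldoc* passed in all 9 other settings and without each of the 6 libraries in turn, with log2 fold changes between 0.49 and 0.67 when a library was left out and an adjusted p of at most 0.0179.

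Pyruvate kinase makes pyruvate and ATP in the last step of glycolysis. *Pkm* (chr9:59656576-59679372) encodes the forms M1 and M2 by the choice of 1 of 2 exons, and M2 is the form of most proliferating and immune cells. *Pkm* was at 534, 579 and 570.0 CPM in control and 701, 776 and 733 CPM in AclyM-KO libraries. The groups stood apart by more than the range within either. The mean rose by 31.3% by the fitted fold, from 561 ± 23.5 to 737 ± 38.0 CPM (log2 fold change 0.39, SE 0.067, 95% interval 0.25 to 0.54, adjusted p 0.00334 in edgeR). As with *Aldoc*, the call held in all 9 other settings and without each of the 6 libraries, with an adjusted p of at most 0.0341.

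The table gave *Pkm* as 2 transcript rows, with log2 fold changes of 0.40 in both when all rows were fitted. The M2 row exceeded the M1 row by 353, 396 and 340 counts (control) and by 427, 923 and 441 counts (AclyM-KO), 4.49% to 6.01% of the M2 row. In GENCODE these rows differ by an exon of 167 bases each (chr9:59675029-59675195 and chr9:59675568-59675734) but also by 205 and 186 bases at the transcript ends. The 205 bases lie before the RefSeq start of *Pkm* given above, and the counted region is not spelled out. The counts therefore give no share of M1 and M2. Of the 50-base words of *Pkm*, 34.4% occur in transcripts of other genes, mostly pseudogenes, and 767 exonic bases overlap *Gm49759* on the same strand.

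Lactate dehydrogenase A turns pyruvate into lactate and restores NAD+, and MCT4, the product of *Slc16a3*, carries lactate out of the cell. Neither gene passed. *Ldha* (chr7:46842274-46855627) was at 359.7, 400.3 and 378 CPM in control and 369, 417 and 369.8 CPM in AclyM-KO libraries, which overlapped. Its means were 379 ± 20.3 and 385 ± 27.7 CPM, with a log2 fold change of 0.02 (SE 0.073, 95% interval −0.13 to 0.18, adjusted p 0.872 in edgeR). *Slc16a3* (chr11:120948484-120959000) was at 30.8, 31.6 and 31.9 CPM in control and 29.0, 29.2 and 33.4 CPM in AclyM-KO libraries, of which replicate 3 was above and the others below every control library. Its means were 31.5 ± 0.570 and 30.5 ± 2.495 CPM (log2 fold change −0.05, SE 0.092, 95% interval −0.25 to 0.16, adjusted p 0.800 in edgeR), and the log2 fold change ran from −0.11 without AclyM-KO replicate 3 to −0.010 without AclyM-KO replicate 2.

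Levels of different genes were compared as RPKM, that is per kilobase of the GENCODE transcript and per unit of CPM. In control macrophages *Pkm* (230.7 RPKM) and *Ldha* (209 RPKM) were the highest, and their ranges over the 3 libraries overlapped although *Pkm* was the higher in each library. *Hk3* (134 RPKM) and *Gpi1* (125 RPKM) followed, then *Aldoc* (34.6 RPKM), *Pfkfb3* (29.2 RPKM), *Hk1* (28.8 RPKM), *Slc16a3* (13.8 RPKM), *Hk2* (9.47 RPKM) and *Slc2a1* (7.01 RPKM). Of these neighbours, *Pkm* with *Ldha* and *Pfkfb3* with *Hk1* had overlapping ranges and the others did not. In AclyM-KO macrophages the ranges of *Pkm* (303 RPKM) and *Ldha* (212 RPKM) did not overlap. At the lower end *Hk1* (29.7 RPKM) stood above *Pfkfb3* (23.4 RPKM), and *Slc2a1* (8.64 RPKM) above *Hk2* (7.59 RPKM), again in every library.

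The share of each paralog in the summed RPKM of its family was compared next, in 7 families that hold 9 of the 10 genes. *Hk3* made up 77.7% ± 0.340 of hexokinase RPKM in control and 81.2% ± 0.442 in AclyM-KO libraries, while *Hk1* went from 16.8% ± 0.210 to 14.96% ± 0.453 and *Hk2* from 5.51% ± 0.132 to 3.83% ± 0.355. *Aldoc* went from 6.56% ± 0.231 to 9.21% ± 0.549 of aldolase RPKM, and *Aldoa* from 93.4% ± 0.223 to 90.8% ± 0.549. *Slc16a3* went from 79.5% ± 2.03 to 73.5% ± 4.42 of its sum with *Slc16a1*, a difference of −5.98 percentage points that was −3.94 without AclyM-KO replicate 2. The level of *Slc16a1*, given here after its values were seen, was 15.8 ± 1.77 CPM in control and 21.4 ± 3.47 CPM in AclyM-KO libraries (log2 fold change 0.45, adjusted p 0.0554 in edgeR), beside the −0.05 of *Slc16a3*. *Pfkfb3* went from 51.9% ± 2.04 to 47.2% ± 2.15 of the PFKFB sum. In these 6 genes the groups did not overlap, though *Slc16a3* came close, at 78.20% in AclyM-KO replicate 3 and 78.25% in control replicate 2. The exact two-sided permutation test gave p = 0.1, the smallest that 3 against 3 libraries allow, or 0.15 adjusted over the 9 genes. Shares in a family sum to 100%, so they do not move independently, and the level of *Hk1* itself had a log2 fold change of 0.04. How often shares separate in other gene families was not examined, so these 6 have no background beside them. *Slc2a1* was 23.7% ± 2.11 and 22.7% ± 2.62 of the glucose carrier RPKM (exact permutation p = 0.8), a difference of −0.99 points that ran from −2.48 without AclyM-KO replicate 2 to −0.034 without AclyM-KO replicate 1. It was −2.14 without control replicate 1, −0.081 without control replicate 2 and −0.46 without AclyM-KO replicate 3. *Ldha* was 98.7% and 99.2% of its family (exact permutation p = 0.2), a difference of 0.52 points that was 0.31 without control replicate 1 and 0.34 without AclyM-KO replicate 2. *Pkm* was 100% of its family in every library, as *Pklr* had 0 counts. The plot of paralog shares shows these families by library.

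**Figure D2:**
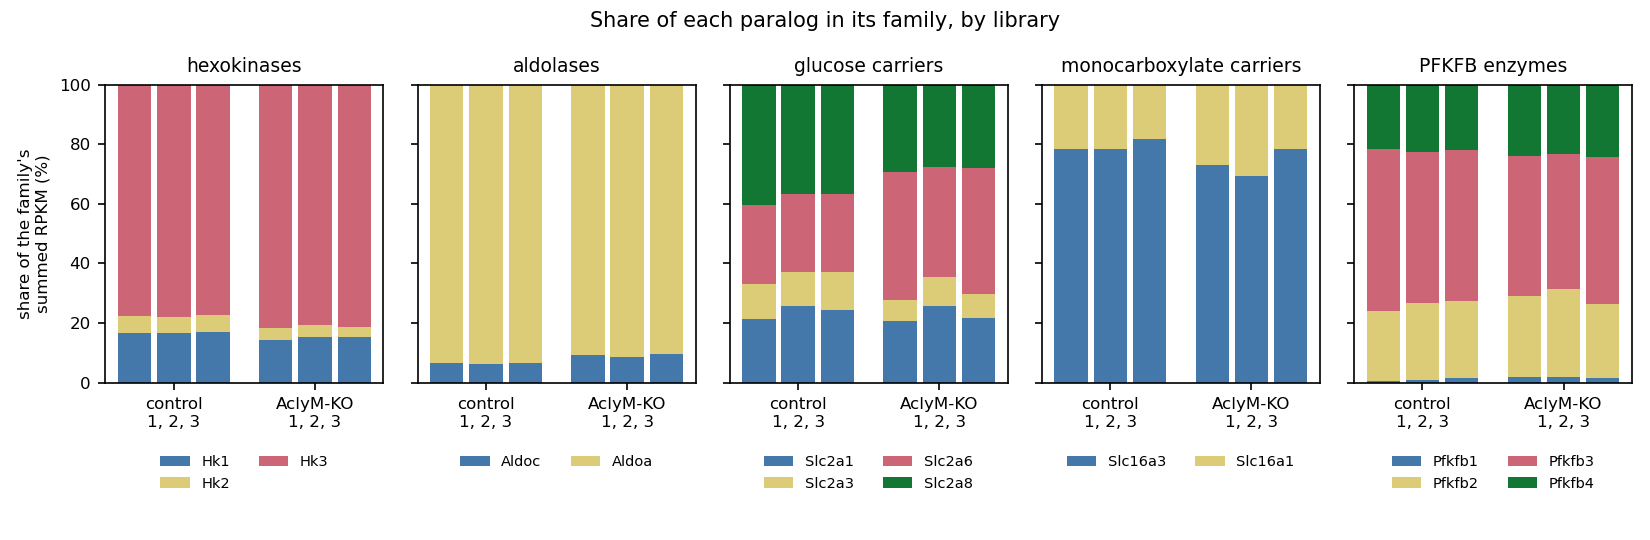
Stacked bars give the share in percent of each paralog in its family's summed RPKM, 1 bar per library, for 5 families with 3 control bars on the left and 3 AclyM-KO bars on the right. *Hk3* fills 77.7% of the control and 81.2% of the AclyM-KO hexokinase bars on average, and *Slc2a6* widens from 26.1% to 40.5% of the glucose carrier bars.

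Among the other genes of glycolysis, 23 of 33 passed the filter on low counts, 2 rose and 0 fell in edgeR, and their median log2 fold change was −0.01. *Eno1* and *Eno1b* both count among the 23 but had nearly the same counts in every library (1758 and 1780 in control replicate 1). They are therefore not separate measurements in this median. *Slc2a6*, a glucose carrier family member found on lysosomes of macrophages, rose from 16.4 ± 1.84 to 33.4 ± 5.98 CPM (log2 fold change 1.01, SE 0.144, adjusted p 0.00143 in edgeR). *Adpgk*, an enzyme of the endoplasmic reticulum that phosphorylates glucose with ADP, rose from 25.5 ± 0.686 to 32.2 ± 0.580 CPM (0.34, SE 0.087, adjusted p 0.0255 in edgeR), and 194 of its exonic bases overlap *Bbs4* on the opposite strand. *Slc2a6* passed in all 9 other settings and without each library, while *Adpgk* did not pass without control replicate 1, 2 or 3 (adjusted p 0.111, 0.0820 and 0.116 in edgeR) or AclyM-KO replicate 3 (0.0524). At an unadjusted p under 0.05, 5 of the 23 were higher and 3 lower in edgeR. DESeq2 called 4 higher and 0 lower, and limma-voom 3 higher and 3 lower. The plot of changes along the pathway places the 10 genes among these 23.

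**Figure D3:**
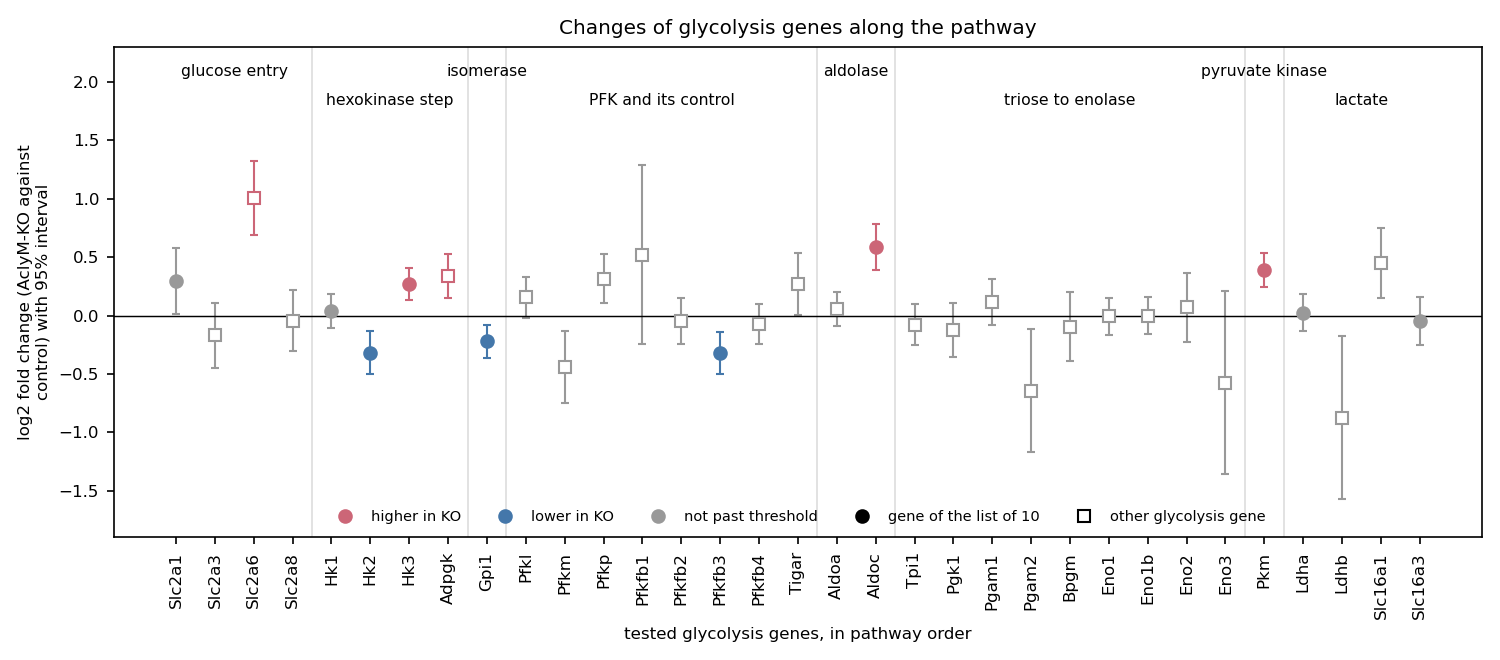
Points give the log2 fold change of each tested glycolysis gene in AclyM-KO against control macrophages with its 95% interval, in pathway order from left to right, filled for the 10 genes and open for the other 23. Genes higher in AclyM-KO (red) and lower (blue) lie side by side from glucose entry to aldolase, and no gene drawn between aldolase and pyruvate kinase passed. *Gapdh* belongs there but was too low in counts to be tested and is not drawn. *Eno1* and *Eno1b* are drawn apart but had nearly the same counts.

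Pyruvate enters mitochondria through the pyruvate carrier and is then oxidised by pyruvate dehydrogenase, which PDK enzymes switch off and PDP phosphatases switch on, or carboxylated to oxaloacetate. Of the 14 genes tested on this list 2 rose and 1 fell, with a median log2 fold change of 0.05. *Pdp2*, a phosphatase that activates pyruvate dehydrogenase, rose from 21.9 ± 0.703 to 33.7 ± 2.16 CPM (log2 fold change 0.62, adjusted p 0.00189 in edgeR). *Pdk2*, a kinase that inactivates it, fell from 20.4 ± 2.27 to 12.5 ± 3.34 CPM (−0.74, adjusted p 0.0228 in edgeR), but did not pass without control replicate 1, 2 or 3 (0.107, 0.0634 and 0.0609). Without AclyM-KO replicate 2 the log2 fold change of *Pdk2* was −0.49. *Pcx*, pyruvate carboxylase, was low in both groups and rose from 2.07 ± 0.306 to 4.71 ± 0.380 CPM (1.17, adjusted p 0.00452 in edgeR).

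Of 13 tested regulators of glycolysis, 1 rose and 0 fell in edgeR, and their median log2 fold change was 0.02. *Epas1*, which encodes HIF-2α, went from 10.5 ± 0.185 to 20.8 ± 1.34 CPM (log2 fold change 0.99, SE 0.111, adjusted p 0.000256 in edgeR). *Hif1a*, named as the partner gene of this comparison after its value was seen, was at 159 ± 5.99 and 161 ± 10.7 CPM (0.02, adjusted p 0.905 in edgeR). At an unadjusted p under 0.05, edgeR had 3 regulators higher and 2 lower, DESeq2 called 0 lower and limma-voom 2 lower. Of 17 tested hypoxia-responsive genes outside glycolysis, 0 rose and 1 fell in edgeR, and their median log2 fold change was −0.03. *Vegfa*, a growth factor of blood vessels, fell from 93.3 ± 9.87 to 61.6 ± 3.96 CPM (−0.60, SE 0.089, adjusted p 0.00179 in edgeR). At an unadjusted p under 0.05, edgeR had 3 of these 17 genes higher and 3 lower, DESeq2 called 0 higher and limma-voom 2 higher.

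The side branches take sugar phosphates out of glycolysis into the pentose phosphate pathway, glycogen, amino sugars, glycerol phosphate and serine. Of 17 genes tested there, 4 rose and 3 fell, with a median log2 fold change of 0.17. *Tkt*, transketolase, rose from 290.4 ± 3.89 to 396 ± 26.0 CPM (log2 fold change 0.45, adjusted p 0.00186 in edgeR), and *Pgd*, the 6-phosphogluconate dehydrogenase of the same pentose phosphate pathway, from 304 ± 9.55 to 368 ± 23.8 CPM (0.27, adjusted p 0.0231 in edgeR). *Pgd* did not pass without control replicate 1, 2 or 3 (adjusted p 0.0739, 0.114 and 0.127 in edgeR) or AclyM-KO replicate 3 (0.0780). *Phgdh*, the first enzyme of serine synthesis, was low in both groups and rose from 2.15 ± 0.122 to 5.83 ± 1.97 CPM (1.49, adjusted p 0.00427 in edgeR). Without AclyM-KO replicate 2 the log2 fold change of *Phgdh* was 1.13. Both glycogen enzymes that passed fell. *Pygl*, glycogen phosphorylase, went from 140.3 ± 8.49 to 98.4 ± 8.16 CPM (−0.52, adjusted p 0.00215 in edgeR). *Gys1*, glycogen synthase, went from 21.5 ± 1.95 to 16.1 ± 1.21 CPM (−0.43, adjusted p 0.0299 in edgeR), with 310 exonic bases shared with *Ruvbl2* on the opposite strand. The *Gys1* call was lost without control replicate 1, 2 or 3 (adjusted p 0.0682, 0.153 and 0.0846 in edgeR) or AclyM-KO replicate 1 (0.0537).

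The proliferation genes moved with the genotype as well, and their part in the glycolysis results was not tested. As a mean on the log2 scale, with the average of the 6 libraries set to 0, these genes stood at −0.35, −0.26 and −0.20 in the control libraries and at 0.11, 0.51 and 0.19 in the AclyM-KO libraries. AclyM-KO replicate 2, the deepest library, was the highest. Without it, *Aldoc* (log2 fold change 0.67), *Pkm* (0.36), *Hk3* (0.29), *Hk2* (−0.35), *Pfkfb3* (−0.27) and *Gpi1* (−0.18) all passed. Thinning its counts to a total of 11387162 left 3 of the 10 genes higher and 3 lower. The plot of adjusted p by setting shows how each of the 10 calls depended on the setting and on single libraries.

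**Figure D4:**
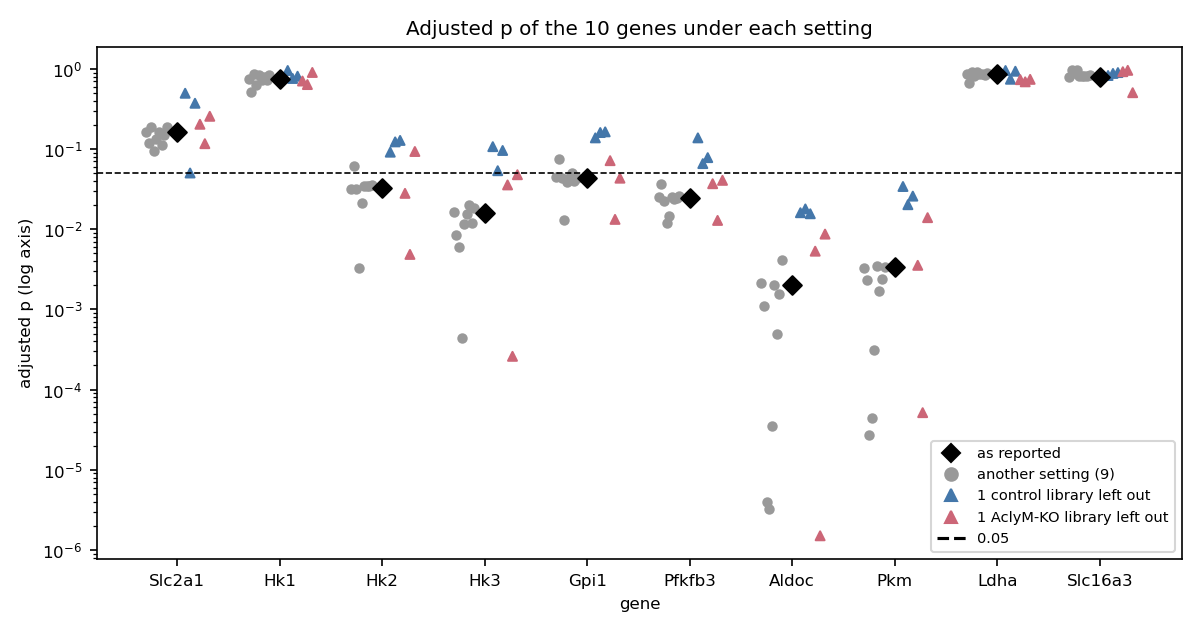
The vertical axis gives the adjusted p on a log scale for each of the 10 genes, as reported (diamonds), in 9 other settings (circles) and with 1 control (blue triangles) or 1 AclyM-KO (red triangles) library left out. All points of *Aldoc* and *Pkm* lie below the dashed threshold of 0.05, while every blue triangle of *Hk2*, *Hk3*, *Gpi1* and *Pfkfb3* lies above it.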

How the data were processed

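Gene expression was measured in 6 libraries, 3 per genotype. Per the labels and the study's methods, the authors prepared strand-specific mRNA libraries, converted base calls with CASAVA 1.8.2, aligned reads with STAR 2.5.2b to mm10, kept alignments with a mapping quality above 15 and counted reads per RefSeq transcript with HOMER at its default settings. The deposited values were raw read counts, not normalized, in 35745 transcript rows. What these defaults were for strand and counted region is not spelled out there. Of 12 columns of values, 6 matched samples analysed here and the other 6 were not used.

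Accessions were named from the RefSeq gene table (35435 rows) or GENCODE M21 (193 rows), and 117 kept their accession. The row with the highest total over the 6 libraries represented each of 24562 symbols. These totals per library ran from 11120034 to 25814853 counts, which with 3 libraries per group limits precision, and the biological coefficient of variation was 8.90%. Genes were filtered with filterByExpr, scaled by TMM and tested for genotype by the quasi-likelihood F-test of edgeR 4.0.16 (limma 3.58.1, R 4.3.3), with Benjamini-Hochberg adjustment over 11470 genes and a threshold of 0.05. The procedure was also run on simulated data, with no change or with changes larger than those of the 10 genes. That run therefore does not show how well changes of their size are found. The study compared genotypes with DESeq2, which was one alternative here (DESeq2 1.42.0). The others were size factors of DESeq2 in edgeR (RLE), total counts, limma-voom with sample weights, no filter, at least 10 counts in every library, a replicate block, all transcript rows, thinning of AclyM-KO replicate 2, and leaving out each library. RPKM used GENCODE M21 transcript lengths, and shared sequence was the share of 50-base words found in transcripts of another gene. Libraries of 1 group correlated and differed beyond sampling noise, so none was counted as a duplicate.

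All 10 glycolysis genes are described. From each other pathway list, the genes past the threshold are named, at most 5 per list by smallest adjusted p. The 10 genes and all lists were chosen with earlier results of these data known, so no p-value was adjusted over a list alone and no list was tested as a set. The values of some list genes are not reported here.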

Additional observations from a re-analysis of the deposited data

How the results depend on the processing

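With 3 libraries per group, each control library mattered. Without control replicate 1, 2 or 3, edgeR called 363, 376 or 384 genes higher and 235, 282 or 244 lower, against 768 and 648 with all 6 libraries, and over all libraries left out in turn the counts ran from 363 to 1105 higher and from 235 to 1031 lower. Without AclyM-KO replicate 2 it called 1031 genes lower, and without AclyM-KO replicate 3 it called 424. Limma-voom called 1077 genes lower. Scaling by total counts moved the median of all genes by 0.04 on the log2 scale. *Aldoc* and *Pkm* kept their call under all 15 alternatives. The count of falling genes among the 10 was 1 with total counts and 0 to 3 with a library left out, 0 of them without any 1 control library. *Hk2* was −0.28 with total counts (adjusted p 0.0613) and −0.36 to −0.25 with a library left out. *Gpi1* was −0.19 with total counts (0.0747), −0.22 with the replicate block (0.0506) and −0.26 to −0.18 with a library left out. *Hk3* ran from 0.24 to 0.30 and *Pfkfb3* from −0.35 to −0.27 with a library left out. *Ldha*, which never passed, turned to −0.025 in limma-voom, −0.014 without control replicate 1 and −0.036 without AclyM-KO replicate 2, with a range of −0.036 to 0.063 when a library was left out. The cause of these differences was not tested.

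In the pathway lists, the other glycolysis genes gave 4 higher with total counts, DESeq2, no filter and the replicate block, 3 lower in limma-voom and 2 lower with no filter, with 1 to 3 higher and 0 to 2 lower when a library was left out. Pyruvate entry gave 2 lower in limma-voom and 0 to 2 with a library left out, 0 of them without any 1 control library, where *Pdk2* lost its call. The regulators gave 2 lower in limma-voom, 1 with no filter and 1 with the block, and 1 to 2 higher and 0 to 2 lower with a library left out. The hypoxia-responsive genes gave 1 higher with total counts, no filter, the block and all transcript rows and 2 in limma-voom, and 2 lower in limma-voom, 3 with no filter and 2 with the block, with 0 to 2 higher and 1 to 2 lower when a library was left out. The side branches gave 2 to 5 higher and 1 to 3 lower when a library was left out.

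Replicate numbers are shared by the groups, but same-numbered libraries correlated by 0.0996, 0.126 and −0.061 in their deviations from the group means, so the numbers were not taken to pair the libraries. With the block, edgeR called 862 genes higher and 721 lower, and of the 10 genes *Gpi1* was the one whose call changed.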

Other observations

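*Gapdh*, which encodes the enzyme after aldolase and is abundant in most cells, had 2, 6 and 4 counts in the control and 8, 7 and 3 counts in the AclyM-KO libraries, so it did not pass the filter on low counts. It is singled out here after its values were seen. Of the 50-base words of its transcript, 90.4% occur in transcripts of other genes, 215 of them pseudogenes, and the study's filter on mapping quality removes reads that map to several places. The share was 72.2% for *Eno1*, 68.0% for *Pgk1* and 41.5% for *Pgam1*, which were at 168 ± 7.33, 133 ± 10.4 and 40.9 ± 3.53 CPM in control macrophages. Among the 10 glycolysis genes it was 34.4% for *Pkm*, 25.3% for *Gpi1*, 16.6% for *Ldha* and 1.74% for *Slc2a1*, and 0 for the other 6. What part of any of these levels was lost to shared sequence was not tested.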
